A study of Mus musculus with 9 samples.

Results

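The nuclear genome encodes most subunits of the mitochondrial respiratory chain and of ATP synthase, and their transcripts are described here in a mouse pancreatic cancer line with and without a CD49b knockout, in culture and as tumours. Members are protein-coding genes whose GENCODE M21 symbol starts with Nduf and 1 of the letters a, b, c, s or v followed by a digit, is Sdha, Sdhb, Sdhc or Sdhd, or starts with Uqcr, with Cox and a digit from 4 to 8, or with Atp5. The rule used no measured value and found 84 of the 49671 genes in the count tables, 37 for complex I, 4 for complex II, 8 for complex III, 18 for complex IV and 17 for complex V. It misses Cyc1, Cycs, Ndufab1 and Usmg5, described below with other companion genes, and it takes in Atp5s, which is not a structural subunit, and Cox7a2l, a factor of supercomplex assembly. Ndufa4, now known as a subunit of complex IV, and its paralogue Ndufa4l2 are counted with complex I by their symbols.

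Complexes I and II feed electrons from NADH and succinate into ubiquinone, complex III passes them to cytochrome c, and complex IV (cytochrome c oxidase) passes them to oxygen. Complexes I, III and IV pump protons across the inner mitochondrial membrane, and ATP synthase (complex V) uses the gradient to make ATP. Complex II is encoded wholly in the nucleus, while the other complexes also hold subunits made from mitochondrial DNA. Several subunits of complex IV exist as isoforms from separate genes, 1 used in most tissues and the other chiefly in muscle, lung or testis.

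The groups were tumours of the knockout line KPC49bKO (KO, 2 libraries), tumours of the line KPCWT (WT, 3 libraries), KO cultures (2 libraries) and WT cultures (2 libraries). CD49b is integrin alpha 2, a collagen receptor chain encoded by Itga2. Tumours grew under the flank skin of syngeneic C57BL/6 mice and were dissociated with enzymes before RNA extraction, and cultures grew in DMEM with serum. Each genotype is 1 line, so a KO effect is here the difference between these lines, and what is due to CD49b cannot be told apart from other differences between them. The batch in the labels coincides with growth in culture or in mice, so batch and setting cannot be told apart, and KO was compared with WT within a setting. The labels call the replicates biological and do not say whether cultures or mice were independent, so p-values measure the spread between these libraries.

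Library totals ran from 16032912 to 21247023 counts. KO tumours 1 and 3 are named by the numbers in the data columns. Itga2 was lower in KO than in WT in both settings but was detected in every library, with a log2 fold change of -1.32 in tumours (SE 0.18, edgeR adjusted p = 0.00602) and -0.64 in cultures (SE 0.17, adjusted p = 0.0135). Of 10 annotated pseudogenes with member-like symbols none had over 12 counts in a library, but how reads shared with copies elsewhere in the genome were counted, and whether strand was used, is not stated. The tumours held host cells. The summed level of 7 fibroblast markers was 389 and 615 CPM (counts scaled to library size, with TMM factors over all 9 libraries) in KO tumours and 1587, 1071 and 2955 CPM in WT tumours, and at most 2.59 CPM in any culture. In bulk RNA, fewer cells of a type and less RNA per cell cannot be told apart.

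The members as a whole took more of the RNA in KO tumours than in WT tumours. Their summed level was 11275 and 7759 CPM in KO tumours, against 5170, 5296 and 5849 CPM in WT tumours, so every KO tumour lay above every WT tumour, and the ratio of the group means was 1.75. In KO cultures the sum was 12318 and 15158 CPM, against 12793 and 16218 CPM in WT cultures, which overlapped, with a ratio of 0.947. WT tumours were thus the group with the lowest sum, and the KO tumours lay between them and the cultures. KO tumour 1 stood above KO tumour 3 for 77 of 79 members tested, a spread within that group that touches each tumour result below.

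**Figure D1:**
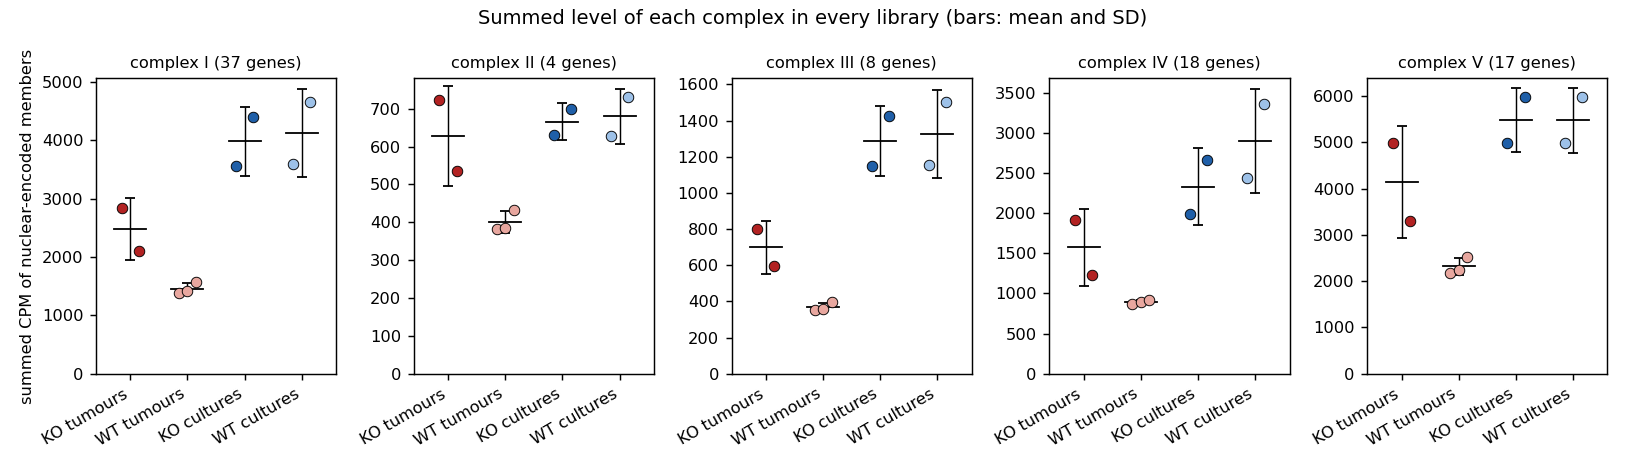
Summed CPM of the nuclear-encoded members of complexes I to V, with 1 point per library, in KO tumours, WT tumours, KO cultures and WT cultures. Bars give the mean and SD. In each of the 5 complexes every KO tumour lies above every WT tumour, and the KO and WT cultures overlap in all of them.

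All 5 complexes had that order in tumours. The ratio of summed CPM between KO and WT tumours was 1.70 for complex I, 1.57 for complex II, 1.90 for complex III, 1.76 for complex IV and 1.79 for complex V. In cultures the ratios were 0.964, 0.978, 0.971, 0.803 and 1.00 in the same order, with complex IV the lowest. Complex IV made up 16.1% and 17.6% of the members' counts in KO cultures and 19.1% and 20.7% in WT cultures, without overlap. In the tumours its share was 16.9% and 15.9% in KO and 16.7%, 16.9% and 15.6% in WT, and these overlapped.

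In tumours, 48 of 79 members tested were higher in KO and none was lower, by edgeR's quasi-likelihood test with Benjamini-Hochberg adjustment at 0.05 over all 16257 genes. Over all genes 8.78% were called higher and 10.9% lower. The median log2 fold change was 0.83 over the members tested and -0.01 over all genes, and 77 of the 79 lay above 0. KO and WT tumours did not overlap, with KO above, for 72 of 79 members, against 27.3% of all genes tested. The 5 members under the filter were Cox6a2, Cox6b2, Cox7b2, Cox8b and Cox8c.

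The number called rests on the libraries, and WT tumours 1 and 2 were the replicates most like each other. Without WT tumour 3 the number called was 42. It was 11 without WT tumour 2, 14 without WT tumour 1 and 23 without KO tumour 1, and 69 without KO tumour 3, with none lower in each case. The members called under each alternative were Atp5c1, Atp5g3, Cox7b, Cox8a, Ndufa13, Ndufv2, Uqcrb and Uqcrc2, 8 in all.

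**Figure D2:**
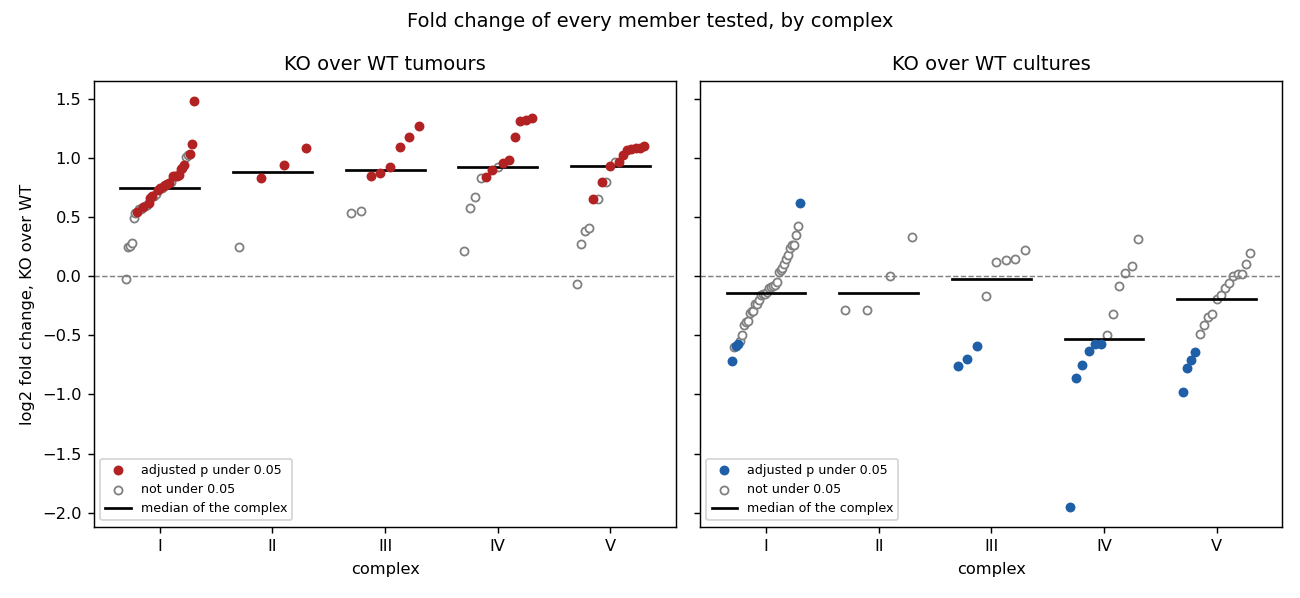
Log2 fold change (KO over WT) of each member tested, by complex, in tumours on the left and cultures on the right. Filled points have an edgeR adjusted p under 0.05, open points do not, and the line is the median of the complex. In tumours the medians run from 0.75 to 0.94, and in cultures from -0.53 to -0.02.

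Complex I, the entry point for electrons from NADH, had 21 of 37 members higher in KO tumours and none lower, with a median log2 fold change of 0.75. Of its 7 core subunits, which carry the flavin and the iron-sulphur clusters, 6 were higher, and of the 30 other members, mostly accessory, 15 were higher. Ndufv2, a core subunit of the NADH-oxidising module, stood at 123 and 94.5 CPM in KO tumours and at 51.1, 45.3 and 52.8 CPM in WT tumours. KO tumours were above WT tumours without overlap, by 1.12 on the log2 scale (SE 0.16, edgeR adjusted p = 0.00673).

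Ndufa13, an accessory subunit also known as GRIM-19, had the largest log2 fold change of all members in tumours. It stood at 172 and 101 CPM in KO tumours, against 48.2, 46.6 and 50.6 CPM in WT tumours, a log2 fold change of 1.48 (SE 0.23, adjusted p = 0.00844). It was also the member called higher in cultures, with 186 and 219 CPM in KO and 107 and 149 CPM in WT (log2 fold change 0.62, SE 0.18, adjusted p = 0.0246). In cultures it was not called without WT culture 1 or KO culture 2, and when all 9 libraries were fitted together (adjusted p = 0.0803). The accessory subunits Ndufa9 and Ndufa10 rose by 0.77 and 0.91 in KO tumours (adjusted p = 0.00869 and 0.0104), while Ndufa6 and Ndufb4 had log2 fold changes of 0.25 and 0.28 (adjusted p = 0.295 and 0.377).

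Complex II, succinate dehydrogenase, sits in both the citric acid cycle and the respiratory chain. Its iron-sulphur subunit Sdhb and its membrane anchors Sdhc and Sdhd were higher in KO tumours, by 1.09, 0.83 and 0.95 on the log2 scale (edgeR adjusted p = 0.0239, 0.0301 and 0.0118). Sdhd stood at 148 and 107 CPM in KO tumours and at 65.8, 64.0 and 66.9 CPM in WT tumours. Sdha, the flavin-binding subunit of the same enzyme, stood at 252 and 222 CPM in KO tumours and at 188, 194 and 212 CPM in WT tumours. Its groups did not overlap, but its log2 fold change of 0.25 missed the threshold (SE 0.12, adjusted p = 0.206).

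Complex III had 6 of 8 members higher in KO tumours, with a median log2 fold change of 0.90. Uqcrc2, a core protein of the matrix side, stood at 169 and 151 CPM in KO tumours and at 87.2, 86.7 and 89.5 CPM in WT tumours. Its replicates lay close together in both groups, and the log2 fold change was 0.85 (SE 0.11, edgeR adjusted p = 0.00574). Uqcrb rose by 1.10 (adjusted p = 0.00657), the core protein Uqcrc1 by 0.88 (adjusted p = 0.00861) and Uqcrfs1, the Rieske iron-sulphur protein, by 0.93 (adjusted p = 0.0107). Uqcrh, the hinge protein that holds cytochrome c1, and Uqcr11 rose by 1.18 and 1.27 with wider errors (SE 0.30 each, adjusted p = 0.0364 and 0.0292). The remaining members, Uqcr10 and Uqcrq, had log2 fold changes of 0.55 and 0.54 (adjusted p = 0.101 and 0.201).

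Complex IV had 8 of 13 members tested higher in KO tumours, with a median of 0.93. Cox8a, on the minus strand at 7215153 to 7217616 of chromosome 19 (GRCm38), had the smallest adjusted p of all members, with 141 and 112 CPM in KO tumours and 53.5, 56.4 and 55.8 CPM in WT tumours. The KO tumours were well apart from the WT tumours, by 1.18 on the log2 scale (SE 0.14, edgeR adjusted p = 0.00395). Cox7b, on the X chromosome, stood at 81.0 and 56.6 CPM in KO tumours and at 24.5, 25.9 and 30.3 CPM in WT tumours (log2 fold change 1.34, SE 0.19, adjusted p = 0.00684). Cox5a and Cox6b1 rose by 1.33 and 1.31 (adjusted p = 0.015 and 0.0193). Cox4i1, the largest nuclear-encoded subunit of the enzyme, had a log2 fold change of 0.58 that missed the threshold (SE 0.23, adjusted p = 0.12), as did Cox6c at 0.22 (adjusted p = 0.221).

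ATP synthase had 10 of 17 members higher in KO tumours, with a median of 0.94. In the catalytic F1 head, the beta subunit Atp5b stood at 1503 and 849 CPM in KO tumours and at 495, 531 and 602 CPM in WT tumours. Its log2 fold change was 1.10 (SE 0.25, edgeR adjusted p = 0.0257). The alpha subunit Atp5a1 had a change of 0.66 that missed the threshold (SE 0.19, adjusted p = 0.0547). The gamma, delta and epsilon subunits of the central stalk, Atp5c1, Atp5d and Atp5e, rose by 0.97, 1.08 and 1.03 (adjusted p = 0.00706, 0.0144 and 0.0267). In the peripheral stalk Atp5f1 and Atp5o rose by 0.94 and 0.65 (adjusted p = 0.0195 and 0.0267), while Atp5h and Atp5j had changes of 0.39 and 0.27 (adjusted p = 0.194 and 0.287).

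**Figure D3:**
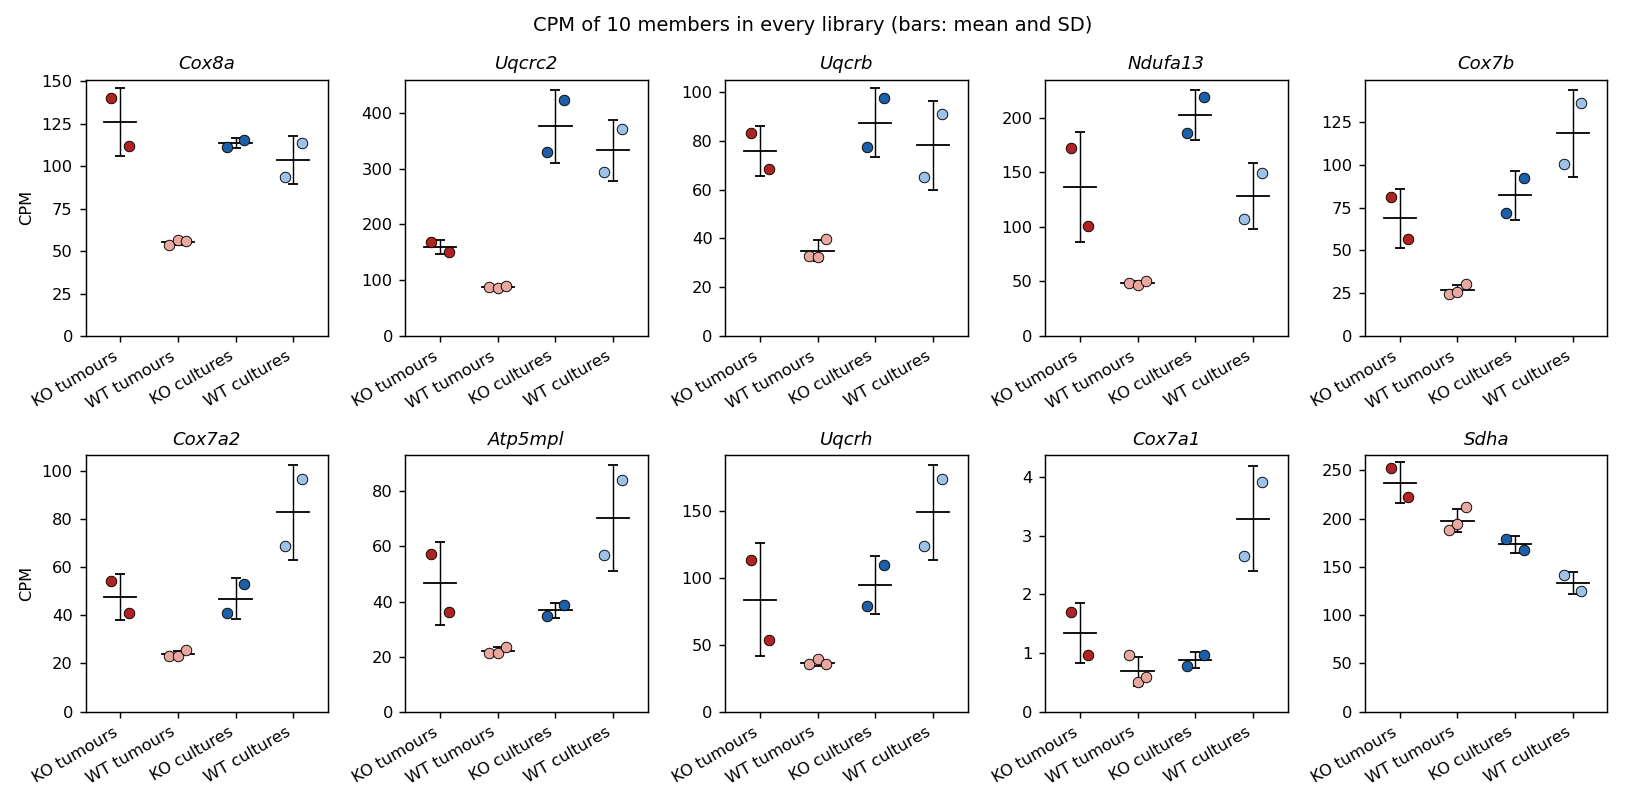
CPM of 10 members in each library, with 1 point per library, in KO tumours, WT tumours, KO cultures and WT cultures. Bars give the mean and SD. For Cox7a2, Atp5mpl and Uqcrh the KO libraries lie above WT in tumours and below WT in cultures, while Sdha is highest in KO tumours.

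In cultures few members were called, and all but 1 of those were lower in KO. Of 77 members tested, Ndufa13 was higher in KO cultures and 16 were lower, against 9.27% of all 13573 genes called higher and 16.2% called lower. The median log2 fold change was -0.16 over the members and 0.00 over all genes. KO cultures lay above WT cultures without overlap for 9 members and below for 23, or 29.9%, against 32.7% and 29.2% of all genes. The 7 members under the filter were Cox4i2, Cox6a2, Cox6b2, Cox7b2, Cox8b, Cox8c and Ndufa4l2.

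The lower members in cultures were 3 of complex I (Ndufa5, Ndufb3 and Ndufb7), 3 of complex III (Uqcr10, Uqcr11 and Uqcrh), 6 of complex IV (Cox6a1, Cox6b1, Cox6c, Cox7a1, Cox7a2 and Cox7b) and 4 of complex V (Atp5h, Atp5j, Atp5k and Atp5mpl). None is a core subunit of complex I, where the median of the 7 core genes was 0.15, or a subunit of the F1 head. Atp5mpl, a small proteolipid that copurifies with ATP synthase, stood at 34.9 and 38.7 CPM in KO cultures and at 56.8 and 84.0 CPM in WT cultures (log2 fold change -0.98, SE 0.20, edgeR adjusted p = 0.00294). Cox7a2, a small subunit of complex IV, stood at 40.8 and 53.1 CPM in KO cultures and at 68.8 and 96.6 CPM in WT cultures (log2 fold change -0.86, SE 0.20, adjusted p = 0.00669). Neither group pair overlapped. Cox6c fell by 0.75 (adjusted p = 0.00529) and Uqcr10 by 0.76 (adjusted p = 0.0111).

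Replicates differed in the same direction in both lines. Of 77 members 73 were higher in KO culture 2 than in KO culture 1, and likewise 73 in WT culture 2 against WT culture 1. The labels do not state whether same-numbered cultures were paired. The number of lower members was 1 without WT culture 2 and 3 without KO culture 1. It was 7 when all 9 libraries were fitted together. Atp5mpl was the member called in cultures under each alternative. Without WT culture 2 the median over the members was 0.03.

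The KO effect differed between the settings. In the fit of all 9 libraries, 29 of 80 members had a higher log2 KO effect in tumours than in cultures and none a lower one, against 4.15% and 1.54% of all 16793 genes. The median difference was 0.96 over the members tested and 0.05 over all genes. In that fit the difference lay above 0 for 78 of the 80 members, against 8944 of the 16793 genes. The 29 include Cox6b2, which had no count in KO cultures, and whose fitted value is not given. The count was 3 without WT culture 2 or without KO culture 1, 7 without WT tumour 2, 8 without WT tumour 1 or without KO culture 2, 13 without KO tumour 1 and 58 without KO tumour 3.

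Atp5mpl, Cox7a2 and Cox7b had the smallest adjusted p for this difference and were called under each alternative. Their differences were 2.02 (SE 0.32, edgeR adjusted p = 0.00541), 1.81 (SE 0.28, adjusted p = 0.0051) and 1.88 (SE 0.30, adjusted p = 0.00541). In tumours Atp5mpl stood at 57.3 and 36.0 CPM in KO and at 21.3, 21.1 and 23.6 CPM in WT, the reverse of its order in cultures. Cox7a2 likewise stood at 54.3 and 41.0 CPM in KO tumours and at 23.1, 22.9 and 25.6 CPM in WT tumours. In all, 7 members were called lower in KO cultures and higher in KO tumours: Atp5mpl, Cox6a1, Cox6b1, Cox7a2, Cox7b, Uqcr11 and Uqcrh. The share of all genes with both calls was not counted. The core subunits of complex I had a median difference of 0.50 with 1 of 7 called, Ndufv1, and Sdha had -0.12 (SE 0.19, adjusted p = 0.803).

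Size of the coding sequence moved with the culture result. Among members with a coding length under 300 bases, 10 of 20 tested were lower in KO cultures and none was higher, with a median log2 fold change of -0.53. From 300 to under 600 bases 6 of 36 were lower, and none of 21 longer members was called. Other protein-coding genes had the same order with smaller medians, -0.25 under 300 bases, -0.12 from 300 to under 600, -0.02 from 600 to under 1500 and 0.07 from 1500 bases. Over 76 members, leaving out Cox4i2, Ndufa4l2, Cox6b2 and Cox7a1 for their low counts, Spearman's rho between coding length and log2 fold change was 0.53 in cultures and -0.18 in tumours, with each point an average over the same libraries.

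Replicates of a group also differed by length. The median log2 ratio of KO culture 1 over KO culture 2 was -0.15 over other protein-coding genes with a coding length under 600 bases and 0.12 over those of 1500 bases or more, and for WT culture 1 over WT culture 2 the medians were -0.26 and 0.14. In tumours the short genes outside the members had medians of 0.27 under 300 bases and 0.17 from 300 to under 600, below the 0.97 and 0.78 of the members of those sizes. Members of 600 to under 1500 bases, where other genes had a median of 0.05, had 15 of 17 called higher in KO tumours with a median of 0.85. The part of length in these results was not tested.

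**Figure D4:**
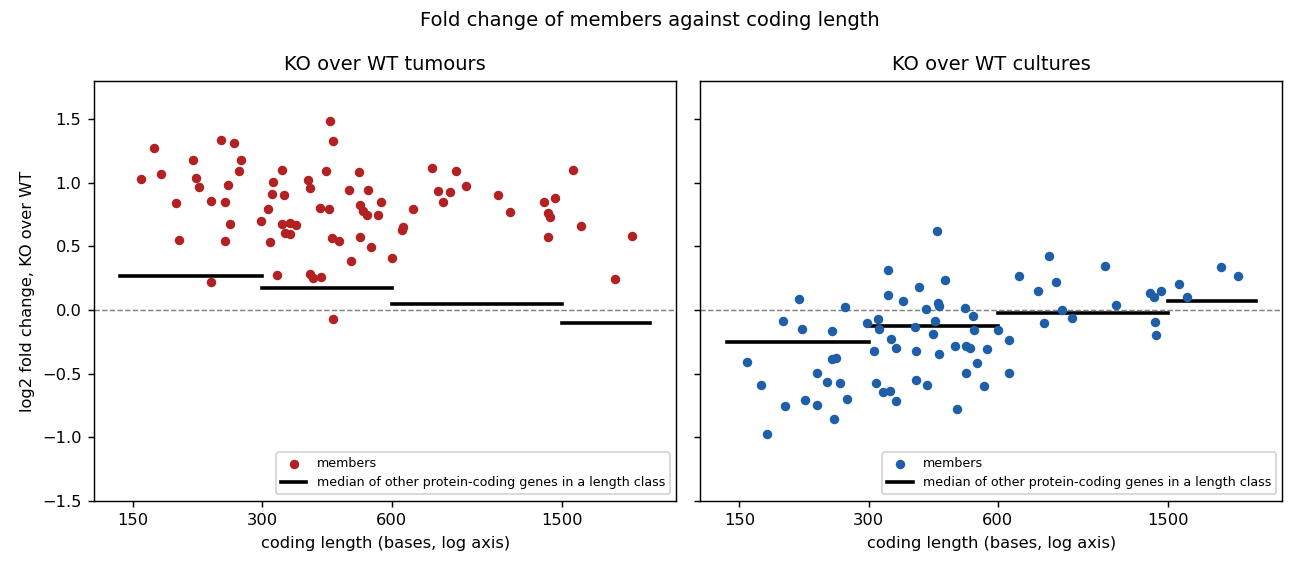
Log2 fold change (KO over WT) of members against coding length on a log axis, in tumours on the left and cultures on the right. Points are members, without Cox4i2, Ndufa4l2, Cox6b2 and Cox7a1, and black lines are medians of other protein-coding genes in 4 length classes. In tumours the medians of the members, 0.62 to 0.97 by class, lie above those of the other genes, and in cultures members under 300 bases have the lowest median, -0.53.

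The 3 genes Atp5g1, Atp5g2 and Atp5g3 encode the same mature subunit c, the proton-carrying ring of ATP synthase, behind different import sequences. In tumours they did not move together. Atp5g3 stood at 258 and 192 CPM in KO tumours and at 99.2, 96.4 and 118 CPM in WT tumours, a rise of 1.09 (SE 0.17, edgeR adjusted p = 0.00899). Atp5g2 stood at 80.1 and 68.4 CPM in KO tumours and at 76.3, 83.1 and 71.5 CPM in WT tumours, with overlap and a log2 fold change of -0.07 (SE 0.14, adjusted p = 0.753). Atp5g1, with 105 and 68.3 CPM in KO tumours and 43.0, 44.9 and 60.1 CPM in WT tumours, had a change of 0.80 that missed the threshold (SE 0.23, adjusted p = 0.0556).

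The ratio of Atp5g3 to Atp5g2 within a library, which needs no scaling between libraries, was 3.22 and 2.80 in KO tumours and 1.30, 1.16 and 1.65 in WT tumours. It was 1.79 and 2.24 in KO cultures and 1.72 and 1.89 in WT cultures. Per kilobase of the annotated principal transcript, Atp5g3 made up 50.2% and 49.9% of the 3 genes in KO tumours and 36.2%, 33.9% and 38.5% in WT tumours, where Atp5g2 made up 45.1%, 47.3% and 37.9%. The Atp5g3 share in KO tumours was thus above that in each WT tumour, and the ratio in both KO tumours was above that in each of the 7 other libraries. These per-length shares depend on which transcript is taken, and the ratio within a library does not.

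**Figure D5:**
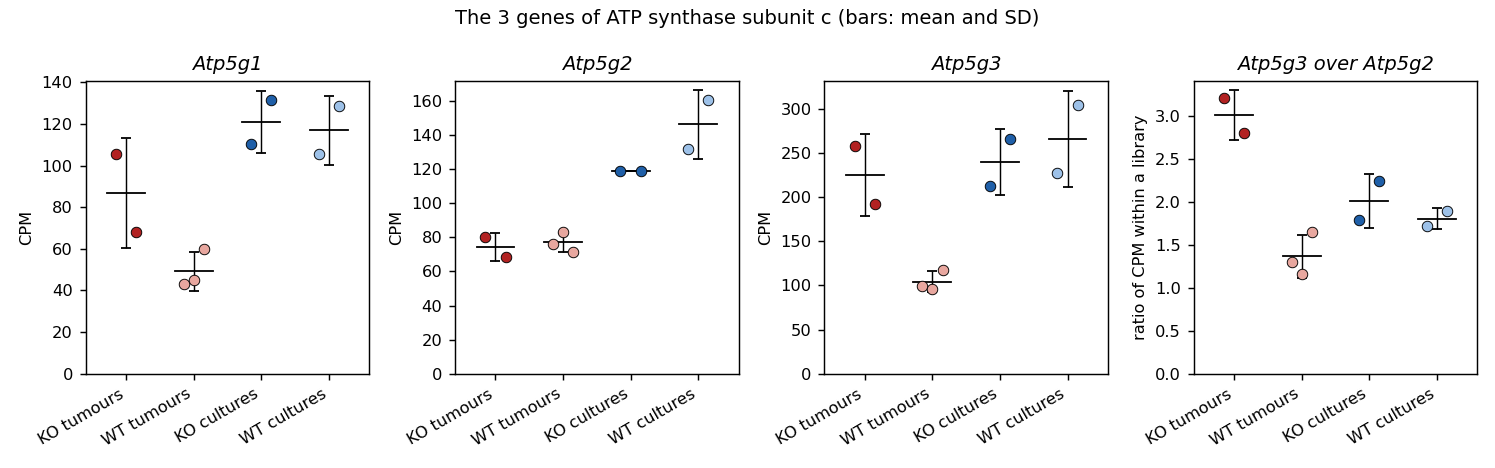
CPM of Atp5g1, Atp5g2 and Atp5g3 in each library and, on the right, the ratio of Atp5g3 to Atp5g2 within a library, with 1 point per library in KO tumours, WT tumours, KO cultures and WT cultures. Bars give the mean and SD. The ratio is 2.80 or more in both KO tumours and at most 2.24 in the 7 other libraries.

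The 250 bases before the start of each subunit c gene are shown because the genes differed while their product does not. They are RefSeq sequences on GRCm38.p6, from the minus strand of chr11:96075632-96075881 for Atp5g1, chr15:102671048-102671297 for Atp5g2 and chr2:73911327-73911576 for Atp5g3, written 5′ to 3′ along the gene. Capitals mark a match on either strand to GCGCA and GCGC with any 1 base between them, a form of the motif of the factor NRF1, in Atp5g2 and to TCAAGGTCA, a form of the motif of oestrogen-related receptors (ERR), in Atp5g3. Atp5g1 had no match to the motifs searched in this window.
Atp5g1: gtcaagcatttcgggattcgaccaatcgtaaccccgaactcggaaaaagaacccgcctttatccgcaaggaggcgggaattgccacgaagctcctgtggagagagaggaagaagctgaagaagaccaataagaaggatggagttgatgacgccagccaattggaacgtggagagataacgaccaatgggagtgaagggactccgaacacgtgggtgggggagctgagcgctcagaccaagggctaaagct
Atp5g2: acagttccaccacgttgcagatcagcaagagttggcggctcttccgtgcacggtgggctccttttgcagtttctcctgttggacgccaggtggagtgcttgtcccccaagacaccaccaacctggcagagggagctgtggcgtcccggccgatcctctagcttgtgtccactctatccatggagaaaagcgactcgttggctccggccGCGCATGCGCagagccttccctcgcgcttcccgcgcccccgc
Atp5g3: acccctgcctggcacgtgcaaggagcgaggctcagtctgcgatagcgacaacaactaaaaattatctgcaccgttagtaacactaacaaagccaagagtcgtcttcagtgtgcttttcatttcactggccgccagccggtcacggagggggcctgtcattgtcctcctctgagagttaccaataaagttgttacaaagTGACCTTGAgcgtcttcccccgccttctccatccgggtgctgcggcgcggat

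Over the 66 members with a RefSeq promoter entry, in a window from 250 bases before to 50 after the start and on both strands, 5 short motifs were searched. The NRF1 form was present in 25.8% of members, 7.17% of 17492 protein-coding genes and 5.19% of all 27025 genes. CCGGAAG, an ETS family form, was present in 24.2%, 12.9% and 9.93% in that order, and AAGATGGC, a YY1 form, in 13.6%, 3.57% and 3.19%. The ERR form was present in Atp5g3 and Sdhd, 3.03% of members, in 0.377% of protein-coding genes and in 0.466% of all genes. GGGCGG, an SP family form, was present in 39.4% of members, below the 49.2% of protein-coding genes and near the 38.2% of all genes. In this longer window Atp5g3 also held the NRF1 form and Atp5g2 also held the SP form. No motif searched contains another, and a match is a description of the letters, not of binding.

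Tissue isoforms of complex IV were near or at 0 beside their widely expressed partners. Cox7b2 and Cox8c had no count in any library, and Cox8b had at most 2. An observed 0 allows an expected count of up to about 3 in a library, as an approximate 95% limit. Cox4i2, an isoform of lung and of oxygen-limited cells, had 17 and 10 counts in KO tumours and 7, 9 and 11 in WT tumours. It had none in the 4 cultures. In KO culture 1, the culture with the fewest counts of Cox4i2 and Cox4i1, the exact 95% upper limit of its share was 0.0247%. Cox4i2 made up 0.159% of the counts of both genes in KO tumours and 0.132% in WT tumours. The exact 95% binomial intervals were 0.105% to 0.231% and 0.0868% to 0.192%, which cover counting error only. Cox6a2, of heart and skeletal muscle, had at most 12 counts in any library.

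Cox7a1, the isoform of heart and muscle, was the member that fell most in KO cultures. It stood at 0.778 and 0.972 CPM in KO cultures and at 2.65 and 3.91 CPM in WT cultures, without overlap (log2 fold change -1.95, SE 0.40, edgeR adjusted p = 0.00324). Its share of the counts of Cox7a1 and Cox7a2 was 1.83% in KO cultures and 3.82% in WT cultures. The exact 95% intervals, 1.22% to 2.64% and 3.12% to 4.61%, pool the libraries of a group and cover counting error only. In tumours the shares were 2.71% in KO and 2.79% in WT, and its log2 fold change of 0.93 missed the threshold (adjusted p = 0.22). Leaving out WT culture 2 ended that call (adjusted p = 0.059). Cox6b2, the testis isoform, had no count in KO cultures and 13 and 6 in WT cultures, and 4 and 10 in KO tumours and 6, 6 and 10 in WT tumours.

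Ndufa4l2, a paralogue of the complex IV subunit Ndufa4 known as a hypoxia-induced gene, was found in tumours of both lines, which also held host cells. It had 72 and 58 counts in KO tumours and 72, 67 and 98 in WT tumours, against 2 and 1 in KO cultures and none in WT cultures. KO and WT tumours overlapped, with a log2 fold change of -0.02 (SE 0.30, edgeR adjusted p = 0.968). Ndufa4 itself rose by 0.85 in KO tumours (SE 0.18, adjusted p = 0.023), with 81.2 and 86.8 CPM in KO and 38.5, 41.9 and 57.7 CPM in WT. The share of Ndufa4l2 in the counts of both genes was thus 4.92% and 3.48% in KO tumours and 8.32%, 7.43% and 6.74% in WT tumours, without overlap. Markers of pericytes, a host cell type, summed to 103 and 81.1 CPM in KO tumours and to 76.0, 65.0 and 113 CPM in WT tumours. In cultures they summed to at most 1.26 CPM. Which cells of the tumours made Ndufa4l2 or Cox4i2 was not tested.

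Between the settings, most members were lower in tumours than in cultures of the same line. In WT, 76 of 80 members tested were lower in tumours and 3 were higher, against 29.6% and 36.1% of all genes, with a median log2 fold change of -1.51 over the members and 0.17 over all genes. In KO, 36 were lower and 4 higher, against 26.4% and 32.9% of all genes, with a median of -0.51 over the members and 0.17 over all genes. The fall was not particular to the members. Of 77 cytosolic ribosome proteins 76 were lower in WT and 77 in KO (medians -1.66 and -1.51). Of 78 mitochondrial ribosome proteins 74 and 66 were lower (medians -1.38 and -1.08). Other protein-coding genes under 300 bases had medians of -0.92 in WT and -0.39 in KO, and those from 1500 bases 0.56 and 0.43. Scaled by library totals instead of TMM, the median was -1.03 over the members and 0.64 over all genes in WT. In KO these medians were -0.08 and 0.60. Under that scaling the members lower in tumours numbered 67 in WT and 15 in KO, against 18.8% and 15.7% of all genes. In KO 14 members were higher, against 45.6% of all genes. The number of members lower in KO was 17 without KO culture 2 and 22 without KO tumour 3, with 3 and 8 higher. For the KO line the counts in each direction thus depend on the scaling and on these libraries. Under both scalings the median of the members in KO lay below that of all genes.

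The members that fell most were Uqcrq of complex III and Ndufa7 and Ndufb8 of complex I. Uqcrq stood at 63.9 and 36.9 CPM in KO tumours and at 258 and 360.1 CPM in KO cultures (log2 fold change -2.62, edgeR adjusted p = 3.8e-05), and at 30.5, 30.5 and 42.1 CPM in WT tumours and 281 and 392 CPM in WT cultures (log2 fold change -3.29, adjusted p = 4.1e-06). Ndufb8 fell by 1.72 in KO and by 3.04 in WT, and Ndufa7 by 2.08 and 2.89. Sdha was called higher in tumours in both lines, the KO call being lost without KO culture 2 or without KO tumour 1. It stood at 252 and 222 CPM in KO tumours and at 179 and 167 CPM in KO cultures (log2 fold change 0.45, adjusted p = 0.0168), and at 188, 194 and 212 CPM in WT tumours and 142 and 125 CPM in WT cultures (log2 fold change 0.57, adjusted p = 0.00285). The other members called higher in tumours were Ndufa4l2 and Cox4i2 in both lines and Cox6b2 in KO, each with a culture group at or near 0 counts.

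Other genes of the pathway were read in the same fits. Of 13 mitochondrially encoded mRNAs, 7 were higher in KO tumours and none lower, and 6 were lower in KO cultures and none higher. mt-Nd1, a complex I subunit, stood at 3215 and 2599 CPM in KO tumours and at 1694, 1599.8 and 1783 CPM in WT tumours, and at 2058 and 2029 CPM in KO cultures and 4609 and 3442 CPM in WT cultures. Of 18 genes of the citric acid cycle and pyruvate dehydrogenase, 10 were higher in KO tumours and none lower (median log2 fold change 0.61), among them Idh3b at 0.96 (edgeR adjusted p = 0.00602) and Suclg2 at 0.77 (adjusted p = 0.00645). Of 49 assembly factors tested, 8 were higher and none lower (median 0.28), among them Acad9 of complex I at 1.03 (adjusted p = 0.0154). In cultures 4 of 50 assembly factors were higher and 5 lower, neither share above the 9.27% and 16.2% over all genes.

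Of the subunits and carriers that the symbol rule misses, 3 of 5 were higher in KO tumours, and cytochrome c, Cycs, rose by 1.29 (edgeR adjusted p = 0.0187). Usmg5, a small ATP synthase subunit, had the pattern of Atp5mpl, with 0.85 in tumours (adjusted p = 0.0131) and -0.89 in cultures (adjusted p = 0.00516). Of 78 mitochondrial ribosome proteins 10 were higher in KO tumours (median 0.33), of 77 cytosolic ribosome proteins 18 (median 0.37), and of 12 other genes of mitochondrial mass 5 (median 0.47), with none lower in the 3 lists, against 8.78% of all genes called higher. Among 15 regulators of mitochondrial biogenesis 2 were higher in KO tumours and none lower, Esrra, which encodes ERR alpha, at 1.15 (adjusted p = 0.00791) and the coactivator gene Ppargc1b at 1.77 (adjusted p = 0.00361). The median over these 15 genes was -0.004, with 7 above 0 and 8 below. Ppargc1a stood at 0.117 and 0 CPM in KO tumours and at 1.75, 2.36 and 0.213 CPM in WT tumours (adjusted p = 0.0679), and Nrf1 had a log2 fold change of -0.39 (adjusted p = 0.0588). In cultures 1 of the 15 regulators was higher in KO and 1 lower, with a median of 0.26 and 12 above 0.

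Markers of the cancer cells had a higher sum in KO tumours but did not all move in the same direction. The summed level of 6 epithelial markers was 9996 and 7775 CPM in KO tumours and 5970, 5566 and 4770 CPM in WT tumours, with Krt8 and Krt19 called higher in KO, Epcam called lower and Krt18, Krt7 and Cdh1 not called. The summed members divided by the summed epithelial markers gave 1.13 and 0.998 in KO tumours and 0.866, 0.951 and 1.23 in WT tumours. On that measure, computed after the sums were seen, the groups overlapped, and WT tumour 3 lay above both KO tumours. Both KO tumours lay above WT tumours 1 and 2. The same ratio was 1.10 and 1.40 in KO cultures and 1.16 and 1.34 in WT cultures, also with overlap. In cultures 1 of the 6 epithelial markers was called higher in KO and 2 were called lower, so some of these markers also differed between the lines. Of the 7 fibroblast markers, 4 were lower in KO tumours and none higher. T cell markers summed to 25.5 and 56.1 CPM in KO tumours and 16.9, 17.2 and 3.74 CPM in WT tumours, and skeletal muscle markers, a tissue rich in mitochondria, to 54.9 and 11.3 CPM in KO and 19.3, 21.8 and 119 CPM in WT. Markers of brown and white adipocytes summed to 58.3 and 69.1 CPM in KO tumours and 28.1, 25.2 and 20.3 CPM in WT tumours, without overlap, and to 69.9 and 65.7 CPM in KO cultures and 33.1 and 31.6 CPM in WT cultures. In tumours 3 of the 6 adipocyte markers passed the filter, with 1 called higher in KO and 1 lower. In cultures 3 passed, with 2 called higher in KO and 1 lower. Cidec made up most of the adipocyte sum in each library, while the defining marker Ucp1 was at 0 in all 9 libraries. The part of cell composition in the members' levels was not tested.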

How the data were processed

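Poly(A) RNA of 9 mouse libraries was sequenced with molecular identifiers, and the deposited tables hold raw counts per gene made by the authors, 1 table for cultures and 1 for tumours. The authors' pipeline included, per the submitters' processing notes, STAR 2.5.2b, Subread 1.5.2 with featureCounts, DESeq2 and fastp 0.23.1 on GRCm38. The annotation release is not given in the sources used here; symbols, types and lengths were taken from GENCODE M21. The authors' normalised and log-scaled tables were not used. KO tumour columns are numbered 1 and 3 while the labels number them 1 and 2, so the second was assigned to its group only. Promoter sequences are RefSeq's on GRCm38.p6.

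Counts were fitted with edgeR 4.0.16 in R 4.3.3 (filterByExpr with a minimum count of 10 and total of 15, TMM, quasi-likelihood test, Benjamini-Hochberg adjustment over all genes, threshold 0.05). Cultures and tumours were fitted separately for KO against WT, and all 9 libraries together for the difference of the KO effects and for tumours against cultures. Printed CPM were scaled by TMM over the 9 libraries, so a ratio of CPM need not equal a fitted fold change. SE was derived from the fold change and its F statistic. Alternatives were DESeq2 1.42.0, limma-voom (limma 3.58.1), other scalings and filters, 1 fit of all libraries, a replicate block and leaving out each library. The fits were tested on simulated counts in which genes varied independently and with the same dispersion. Shifts shared by many genes, as between the replicates here, were not covered. Replicates differed by more than sampling noise. The chi-square per gene was 6.55 between WT tumours 1 and 2 and ran from 25.2 to 43.9 for the other replicate pairs. Named genes are, for each comparison and complex, the 4 members with the smallest p, the 5 with the largest change in each direction among those called, members called in the rarer direction, isoforms with their partners, the subunit c genes, members under the filter, up to 4 genes of each companion list by p, and Itga2. Atp5a1, Atp5b, Ndufa6, Ndufv1 and the epithelial and adipocyte markers fall outside it and were chosen after their values were seen. The members and lists were chosen with earlier results of these data known. The ratio to epithelial markers was computed after the sums were seen.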

Additional observations from a re-analysis of the deposited data

Results flagged for a closer look

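The members below had a KO effect that differed between tumours and cultures by the test of that difference in edgeR's fit of all 9 libraries (adjusted p under 0.05), given as the log2 effect in tumours minus that in cultures. In complex IV it was 2.85 for Cox7a1, 1.88 for Cox7b, 1.85 for Cox6b1, 1.81 for Cox7a2, 1.51 for Cox6a1 and 1.06 for Cox8a. In ATP synthase it was 2.02 for Atp5mpl, 1.25 for Atp5g3, 1.12 for Atp5o and 1.01 for Atp5c1. In complex III it was 1.85 for Uqcrh, 1.83 for Uqcr11 and 1.28 for Uqcr10. In complex II it was 1.20 for Sdhd and 1.09 for Sdhc, and in complex I 1.37 for Ndufa5, 1.32 for Ndufc1, 1.03 for Ndufa3 and 1.21 for Ndufa4, which is counted there by its symbol.

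Cox7a1 rests on low counts, from 10 to 60 in a library. Atp5mpl, Cox7a2 and Cox7b were called under each alternative.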

How the results depend on the processing

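In tumours no alternative gave a lower member, and the number higher was 45 to 62 under other tools, scalings, filters and the fit of all libraries and 11 to 69 leaving out a library, with medians from 0.53 to 1.10. In cultures the fit of all libraries called 0 higher and 7 lower. Leaving out a culture gave 0 to 1 higher and 1 to 23 lower, with medians from -0.38 to 0.033, the last without WT culture 2. The replicate block gave 11 higher and 38 lower of 77 there, against 27.2% and 28.7% of all genes. Same-numbered cultures deviated together (r = 0.56 over 13772 genes), a hint of pairing from 2 pairs that the labels do not state. In tumours the block, on numbers 1 and 3 that the columns of both lines carry, gave 8 higher and 0 lower, and the deviations of those pairs correlated at 0.02. For the difference and the setting contrasts the block left out KO tumour 3, whose column number the labels do not give, so KO tumours had 1 library. There the block also joined cultures and tumours of the same number, a link that the labels do not state. For the difference of the KO effects, the number higher was 57 with no filter, 46 with DESeq2 and 73 with the replicate block (median 1.37), and 3 to 58 leaving out a library, with medians from 0.74 to 1.20. For WT tumours against WT cultures the median was -1.03 with library totals and -1.73 to -1.30 leaving out a library. For KO tumours against KO cultures, library totals gave 14 higher and 15 lower, against 45.6% and 15.7% of all genes. The median was then -0.081 over the members and 0.60 over all genes. The CPM 1 filter gave 2 higher, and the replicate block a median of -0.14. Leaving out a library gave 3 to 8 higher, 17 to 48 lower and medians from -0.73 to -0.28. The cause of these shifts was not tested. With 2 or 3 libraries a group, 1 library can decide a call, and isoforms with few counts are limited by depth.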
